A study of Mus musculus with 12 samples.

Results

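The 33 genes described here are expressed in endothelial cells, the cells that line blood vessels, and were taken by symbol from a fixed list, 33 of 53465 genes in the files. They encode junction and adhesion proteins, the receptors for vascular endothelial growth factor (VEGF) and angiopoietin, other surface or secreted proteins, transcription factors, and the NOTCH ligand Dll4 with the SOXF factors. RNA of mouse forelimb buds was sequenced in 12 libraries, 3 in each of 4 groups, each from 1 pair of buds of a Swiss albino embryo. Tbx3_WT and Tbx3_del buds were of E9.75 to E10 (28 to 31 somites), wild type or Tbx3-deficient. The deficient genotype, Tbx3ΔVenus/ΔVenus, carries in every cell of the embryo a Venus reporter with a transcription stop at the Tbx3 start codon. Hand2_WT and Hand2_del buds were of E10 to E10.25 (31 to 33 somites), with genotypes Prrx1-Cre;Hand2+/+ and Prrx1-Cre;Hand2Δ/Δc. Both Hand2 groups thus carry Prrx1-Cre, a Cre recombinase driven in limb bud mesenchyme. Each deficient group was compared with its own wild types.

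Vessels enter the early limb bud from the trunk and form a plexus that is remodelled as the bud grows. VEGF-A, made largely by the tissue around the vessels and in more amount under low oxygen, acts on endothelial cells through VEGFR2, encoded by Kdr. VEGFR1, encoded by Flt1, binds VEGF-A tightly and in its soluble form holds it away from VEGFR2, and VEGFR3, encoded by Flt4, binds VEGF-C and VEGF-D. VEGF signalling raises Dll4 in tip cells and arteries, and DLL4 in turn acts through NOTCH receptors on neighbouring cells, with the SOXF factors SOX7, SOX17 and SOX18 among the regulators of the arterial programme.

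Levels are counts per 1e6 (CPM), scaled within each series, and fold changes are deficient over wild type on the log2 scale with their standard error (SE). In edgeR's quasi-likelihood test, genes whose p after adjustment over all genes tested lay under 0.05 are referred to as called. Total counts were 23.3 to 31.8 M (1e6) in the Tbx3 series and 60.2 to 68.6 M in the Hand2 series, so the Hand2 series measures low genes more precisely. Hand2 was at 120, 120 and 126 CPM in the 3 Hand2_WT libraries and at 0.187, 2.21 and 0.384 CPM in Hand2_del. Tbx3 was at 78.0, 77.3 and 79.3 CPM in Tbx3_WT and at 80.6, 79.3 and 73.3 CPM in Tbx3_del. The Tbx3 count therefore does not check the label, which is why these buds are called labelled Tbx3-deficient. Hand2_del replicate 1 had 5.37% of its counts on 1 gene, where no other library had more than 1.01%. Embryo sex, read from sex-linked genes, was female in all 3 Tbx3_WT and in 1 of 3 Tbx3_del embryos, so sex and genotype are largely confounded in that comparison. In the Hand2 series, replicates 1 and 2 of Hand2_WT and replicate 2 of Hand2_del were female and the others male, so sex was not balanced there either.

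All 33 members were detected in every library, and 32 passed the low-count filter in the Tbx3 comparison, the exception being Gpihbp1. Per kb of exon, averaged over the 12 libraries, Plvap (27.7 CPM per kb) and Cdh5 (18.3 CPM per kb) had the highest levels. Cldn5 (15.6), Sox18 (12.6), Fli1 (12.4) and Lmo2 (11.1 CPM per kb) followed. Gpihbp1, which carries lipoprotein lipase in mature capillaries, and Ushbp1 had the lowest levels, 0.089 and 0.562 CPM per kb. Gpihbp1 had 2 to 8 counts in the Tbx3 series and 10 to 27 counts in the Hand2 series. The other 31 members lay between 0.973 CPM per kb, the level of Myct1, and that of Plvap. Summed over the members, the level was 747 to 831 CPM in Tbx3_WT, 757 to 840 CPM in Tbx3_del, 742 to 758 CPM in Hand2_WT and 772 to 823 CPM in Hand2_del. The Hand2_del sums lay above all 3 Hand2_WT sums, while the Tbx3 groups overlapped. In RNA of whole buds, a change in the number of endothelial cells and a change in RNA per cell cannot be told apart.

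Endothelial genes were not called as changed in buds labelled Tbx3-deficient, and few were in Hand2-deficient buds. In the Tbx3 comparison 0 of 32 members were called, where 1.01% of all genes tested were (0.727% higher and 0.284% lower). At an unadjusted p under 0.05 there were 8 members, and 14.3% of all genes, and DESeq2 called 2 members (Flt1 higher and Cldn5 lower). Fold changes were positive for 16 and negative for 16 members, with a median of 0.01 beside -0.00 for all genes. In the Hand2 comparison Cdh5, Sox7 and Mmrn2 rose and Lmo2 fell, 4 of 33 members or 12.1% beside 10.5% of all genes. By direction the background was 4.68% higher and 5.82% lower. The count was 0 without Hand2_WT replicate 3 or without Hand2_del replicate 1 or 3, 1 without Hand2_WT replicate 1 or Hand2_del replicate 2, and 3 without Hand2_WT replicate 2, in fits with fewer libraries to measure the spread. DESeq2 called 7. Fold changes were positive for 27 of 33 members there, with a median of 0.12 beside 0.01 for all genes.

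**Figure D1:**
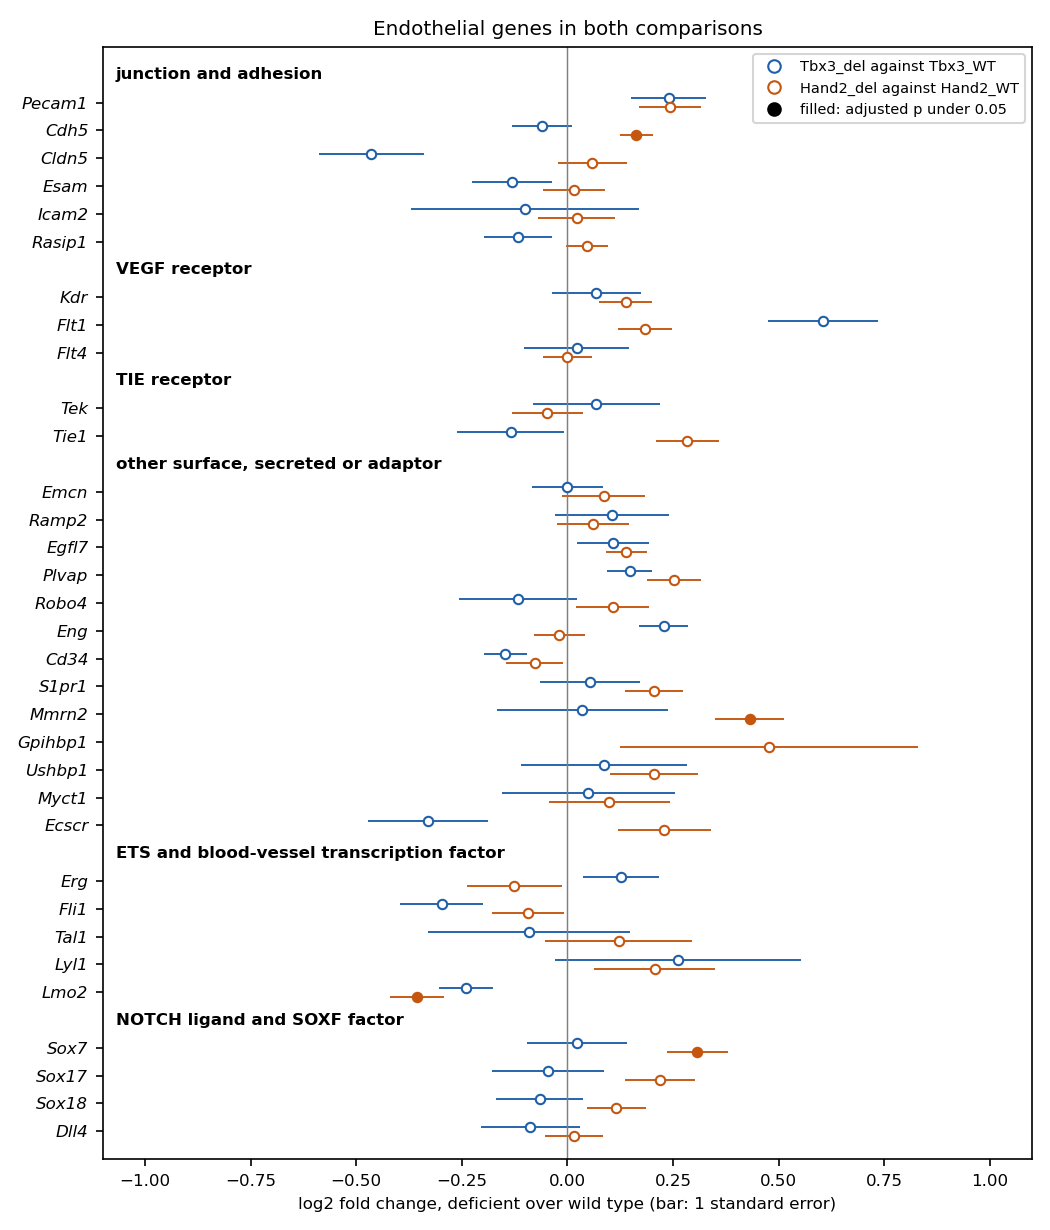
Log2 fold change of each endothelial gene, deficient over wild type, in the Tbx3 (blue) and Hand2 (orange) comparisons, grouped by role. Points are edgeR estimates from 3 against 3 libraries, bars are 1 SE, and filled points passed an adjusted p of 0.05: Cdh5, Sox7, Mmrn2 and Lmo2, all in the Hand2 comparison. Gpihbp1 was tested in the Hand2 comparison only.

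Groups that did not overlap were seen in 7 of 32 members (21.9%) in the Tbx3 comparison, beside 20.6% of all genes, and in 13 of 33 (39.4%) in the Hand2 comparison, beside 38.2%. By direction, 3 members (9.38%) had all Tbx3_del libraries above all wild types, beside 10.7% of all genes, and 4 (12.5%) had them below, beside 9.95%. In the Hand2 comparison 12 members (36.4%) lay higher, beside 18.7% of all genes, and 1 (3.03%) lower, beside 19.5%. Members share libraries and a cell type, so these counts are descriptions. The 3 members that separated the same way in both comparisons were Flt1 and Plvap, higher, and Lmo2, lower.

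The 3 VEGF receptor genes lie on chromosome 5 (Kdr, GRCm38 75932827 to 75978458, and Flt1, 147561604 to 147726011, both on the minus strand) and chromosome 11 (Flt4, 49609263 to 49652739, plus strand). Flt1 and Kdr are 27.9 and 43.7 Mb from Tbx3, which is on the same chromosome. The 250 bases before the RefSeq starts of Flt1 and Kdr (GRCm38.p6, minus strand, 5′ to 3′) are shown because these receptors compete for VEGF-A. Flt1 did not overlap between genotypes in either series, without passing edgeR's test, while Kdr overlapped in both. Capitals mark matches on either strand to GGAAG, a core of sites bound by ETS factors such as ERG and FLI1, to ACGTG, a core of sites bound by hypoxia-inducible factors, and to its variant GCGTG.
Flt1 (chr5:147726012-147726261): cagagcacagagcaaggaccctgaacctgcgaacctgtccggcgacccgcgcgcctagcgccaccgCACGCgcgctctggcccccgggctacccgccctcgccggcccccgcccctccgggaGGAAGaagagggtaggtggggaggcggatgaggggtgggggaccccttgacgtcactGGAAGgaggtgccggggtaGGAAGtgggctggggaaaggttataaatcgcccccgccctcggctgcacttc
Kdr (chr5:75978456-75978705): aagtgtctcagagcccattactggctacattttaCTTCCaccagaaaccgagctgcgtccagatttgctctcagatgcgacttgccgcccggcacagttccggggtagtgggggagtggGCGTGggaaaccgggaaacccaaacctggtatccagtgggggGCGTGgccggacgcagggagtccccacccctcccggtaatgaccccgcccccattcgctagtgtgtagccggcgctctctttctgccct
The Flt1 stretch holds 3 GGAAG and 1 GCGTG, and the Kdr stretch 1 GGAAG and 2 GCGTG. Neither holds ACGTG, and the printed matches do not overlap. Such matches are common: of 32851 promoter stretches of 250 bases in RefSeq, 64.1% hold GGAAG, 16.6% ACGTG and 28.2% GCGTG. Of the 33 members, 18 had an entry, with 23 stretches in all, and 15 of the 18 had 1 stretch each. GGAAG was in at least 1 stretch of 16 of these 18 members, GCGTG of 5 and ACGTG of 0. A count of members with any match is not the same measure as the share of single stretches. A match describes letters, not binding.

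Flt1 was higher in all 3 buds labelled Tbx3-deficient without passing the test. Its level was 26.5, 30.2 and 28.8 CPM in Tbx3_WT and 34.1, 47.7 and 48.1 CPM in Tbx3_del, with deficient replicate 1 nearest to the wild types. The fold change of 0.61 (SE 0.130) was the largest among the members in that comparison, with edgeR adjusted p = 0.0916. It was called without the low-count filter (0.61, adjusted p = 0.00396), by DESeq2 (0.60, adjusted p = 0.000772) and without Tbx3_del replicate 1 (0.75, edgeR adjusted p = 0.00507). With embryo sex as a covariate the value was 0.76 (edgeR adjusted p = 0.266). Among the Hand2 libraries Flt1 was at 28.3, 27.8 and 27.5 CPM in wild types and 29.5, 31.3 and 34.2 CPM in deficient buds. These groups did not overlap either, at a fold change of 0.18 (SE 0.064, edgeR adjusted p = 0.101). The difference between both effects was -0.42 (SE 0.160, edgeR adjusted p = 0.215), and was called without Tbx3_del replicate 1 only (-0.57, edgeR adjusted p = 0.0147). Gene counts do not separate the soluble from the membrane form of VEGFR1.

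Kdr and Flt4 overlapped between the genotypes in both series. Kdr was at 81.5, 84.9 and 75.0 CPM in Tbx3_WT and 70.3, 92.7 and 90.03 CPM in Tbx3_del, where replicate 1 was the lowest of 6. It was at 77.4, 67.7 and 69.4 CPM in Hand2_WT and 73.8, 79.7 and 82.4 CPM in Hand2_del. Its fold changes were 0.07 (SE 0.105, adjusted p = 0.809) and 0.14 (SE 0.062, adjusted p = 0.176) in edgeR. Flt4, in later development a gene of lymphatic endothelium, was at 28.3, 22.5 and 25.5 CPM in Tbx3_WT and 23.3, 30.3 and 23.7 CPM in Tbx3_del. Over the 6 Hand2 libraries it stayed within 23.6 to 25.7 CPM in all. Its fold changes were 0.02 (SE 0.124) and 0.00 (SE 0.057).

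Of the ligands, Vegfa was called in the Tbx3 comparison. It was at 46.3, 43.5 and 47.5 CPM in Tbx3_WT and 75.7, 64.4 and 73.2 CPM in Tbx3_del. All deficient libraries lay above all wild types, at a fold change of 0.63 (SE 0.0711, edgeR adjusted p = 0.0125). The call ended without Tbx3_WT replicate 2 (adjusted p = 0.0623) and with embryo sex as a covariate (adjusted p = 0.083). Hand2_WT had 44.5, 47.1 and 43.8 CPM of Vegfa and Hand2_del 47.3, 42.8 and 55.2 CPM (0.10, edgeR adjusted p = 0.46), and the difference between both effects was not called (-0.53, SE 0.121, adjusted p = 0.0544). That difference was called with no low-count filter (-0.54, adjusted p = 0.0209), by DESeq2 (-0.54, adjusted p = 0.00264) and without Hand2_del replicate 3 (-0.64, edgeR adjusted p = 0.0184). In the Tbx3 comparison 14 of 16 hypoxia and glycolysis genes tested were called higher, beside 0.727% of all genes. Vegfa and Adm, which are on that list, were among them. The summed level of the list was 4062 to 4575 CPM in Tbx3_WT and 6049 to 8392 CPM in Tbx3_del. It was 3409 to 3746 CPM in Hand2_WT and 2811 to 3506 CPM in Hand2_del. The part of this in the Vegfa and Flt1 values was not tested. Vegfd, a ligand of VEGFR3, rose in Hand2_del, from 16.3, 14.1 and 16.8 to 22.5, 19.95 and 22.3 CPM (0.45, SE 0.0898, edgeR adjusted p = 0.0312). This call ended without Hand2_WT replicate 1 or 3 or Hand2_del replicate 1 or 3 (adjusted p from 0.0801 to 0.0955) and with sex as a covariate (0.0551).

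**Figure D2:**
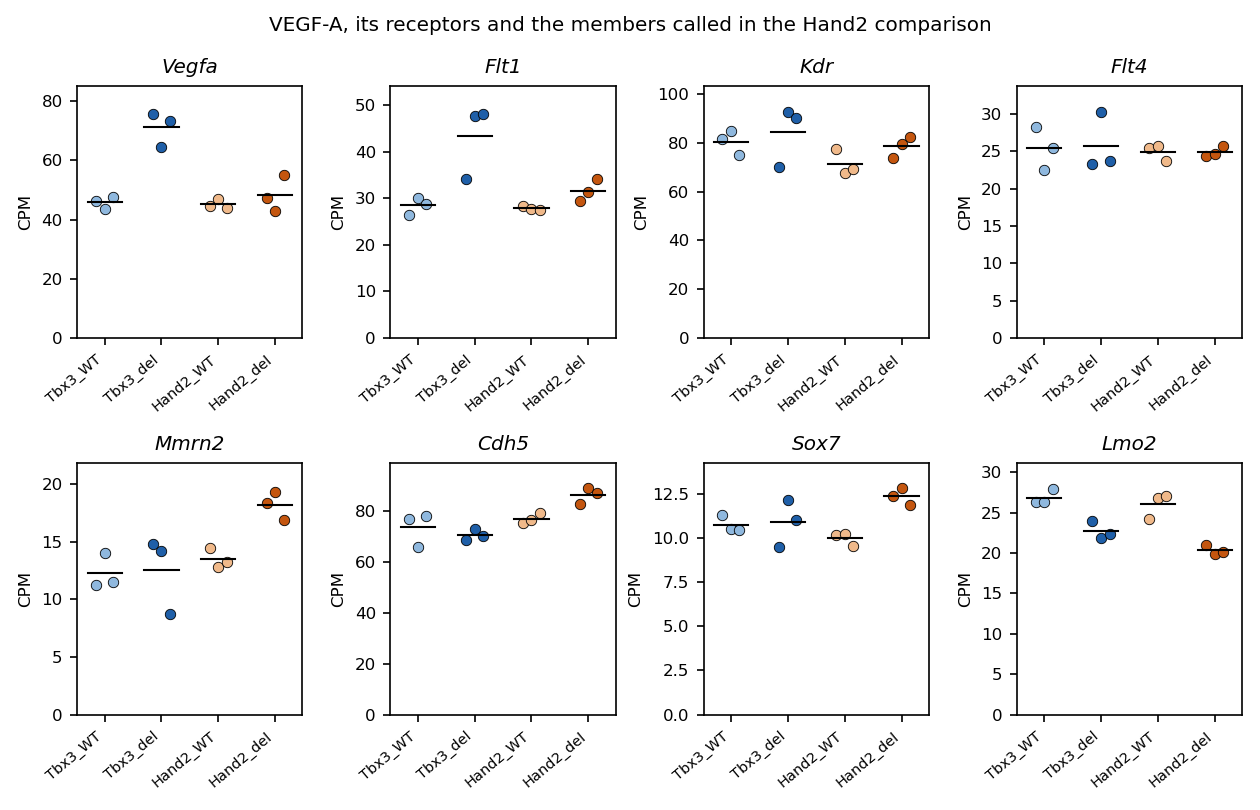
CPM in each library (points) and group means (lines) for Vegfa, its receptor genes Flt1 and Kdr, the related receptor gene Flt4, and the 4 members called in the Hand2 comparison. Vegfa and Flt1 lie higher in all 3 Tbx3_del libraries, Kdr and Flt4 overlap, and Lmo2 lies lower in the deficient libraries of both series.

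A list of 23 VEGF ligands and genes that respond to VEGF gave 3 called higher and 0 lower of 22 tested in the Tbx3 comparison, and 3 higher and 0 lower of 23 in the Hand2 comparison. The medians were 0.06 and 0.10. Of all genes, 0.727% were called higher and 0.284% lower in the Tbx3 comparison, and 4.68% and 5.82% in the Hand2 comparison. Adm, which encodes the vascular peptide adrenomedullin, was called in both. It was at 0.98, 1.13 and 0.88 CPM in Tbx3_WT and 3.30, 5.02 and 5.37 CPM in Tbx3_del (2.19, SE 0.245, edgeR adjusted p = 0.0125). Hand2_WT had 0.49, 0.48 and 0.56 CPM and Hand2_del 0.985, 1.051 and 1.09 CPM (1.03, SE 0.178, adjusted p = 0.0221). The groups did not overlap in either series. The first call ended without Tbx3_WT replicate 2 or 3 (adjusted p = 0.0565 and 0.0609) and with embryo sex as a covariate (0.0577). The Hand2 call ended without any of 5 of its 6 libraries (adjusted p from 0.0501 to 0.0854), all but Hand2_WT replicate 2, and with the sex covariate (0.058). Ramp2, a member, encodes the partner that makes the receptor CALCRL specific for adrenomedullin. It was at 10.6 to 14.8 CPM in Tbx3_WT, 12.9 to 14.6 CPM in Tbx3_del, 11.9 to 12.6 CPM in Hand2_WT and 11.5 to 13.5 CPM in Hand2_del, overlapping in both series. Calcrl itself had fold changes of -0.11 and -0.08 (edgeR adjusted p = 0.732 and 0.759).

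Genes often read as marks of VEGF signalling in tip cells differed among themselves. Kcne3, a potassium channel subunit gene of tip cells, was called in Tbx3_del, from 5.68, 5.37 and 6.38 to 9.20, 13.0 and 10.4 CPM (0.90, SE 0.158, edgeR adjusted p = 0.0482). Its call ended without any of 5 of the 6 libraries (adjusted p from 0.119 to 0.158), all but Tbx3_del replicate 1, by limma-voom (0.067) and with sex as a covariate (0.356). Apln, the gene of the tip cell peptide apelin, was at 13.7, 13.7 and 13.4 CPM in Tbx3_WT and 14.3, 19.2 and 19.6 CPM in Tbx3_del (0.38, SE 0.127, edgeR adjusted p = 0.233), and was called without Tbx3_del replicate 1 (0.51, adjusted p = 0.0453). Hand2 libraries had 9.90, 11.4 and 11.5 CPM in wild types and 9.18, 8.61 and 10.1 CPM in deficient buds (-0.24, adjusted p = 0.147). Its receptor gene Aplnr rose in Hand2_del from 32.7, 34.9 and 30.2 to 37.1, 40.1 and 39.4 CPM (0.25, SE 0.0641, edgeR adjusted p = 0.0499). That call ended under RLE scaling (0.0505), with the sex covariate (0.0542) and without any of 5 of the 6 libraries (0.086 to 0.148), all but Hand2_WT replicate 2. Esm1, a tip cell secreted product, had fold changes of -0.05 and -0.12 (adjusted p = 0.962 and 0.709), and Angpt2, a ligand of TEK, 1.16 and 0.77 (adjusted p = 0.261 and 0.151).

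Dll4 did not differ beyond its spread. It was at 9.90, 11.96 and 11.8 CPM in Tbx3_WT and 9.77, 11.4 and 10.5 CPM in Tbx3_del, and at 9.95, 10.5 and 10.2 CPM in Hand2_WT and 10.3, 10.1 and 10.6 CPM in Hand2_del. Its fold changes were -0.09 (SE 0.117, adjusted p = 0.782) and 0.02 (SE 0.069, adjusted p = 0.894). The NOTCH receptor genes of endothelium, Notch1 and Notch4, were not called either, at 0.01 and 0.14 for Notch1 (adjusted p = 0.966 and 0.44) and -0.05 and 0.12 for Notch4 (0.868 and 0.328). Efnb2, an arterial ephrin gene also expressed outside vessels, had fold changes of -0.07 and 0.12 (adjusted p = 0.626 and 0.17).

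Sox7 was the SOXF gene called in Hand2-deficient buds. It was at 10.2, 10.2 and 9.51 CPM in Hand2_WT and 12.4, 12.8 and 11.9 CPM in Hand2_del, without overlap (0.31, SE 0.073, edgeR adjusted p = 0.0445). Leaving out any of the 6 libraries ended the call (adjusted p from 0.0592 to 0.153), as did no low-count filter (0.0665) and embryo sex as a covariate (0.0664). In the Tbx3 series it was at 11.3, 10.5 and 10.4 CPM in wild types and 9.48 to 12.1 CPM in deficient buds, which overlapped (0.02, SE 0.119). Sox17 was at 5.51, 5.20 and 5.61 CPM in Hand2_WT and 6.50, 6.29 and 6.20 CPM in Hand2_del, also without overlap (0.22, SE 0.083, edgeR adjusted p = 0.121). Sox18 was at 18.3, 19.0 and 19.0 CPM in Hand2_WT and 20.1, 21.8 and 19.1 CPM in Hand2_del, again with all deficient libraries above the wild types, by little (0.12, SE 0.069, edgeR adjusted p = 0.288). In the Tbx3 series both overlapped between genotypes. Sox17 was there at 6.87, 6.76 and 6.11 CPM in wild types and 6.63, 5.65 and 6.85 CPM in deficient buds (-0.05, SE 0.133). Sox18 was at 23.7, 20.7 and 20.7 CPM in wild types and 20.02, 23.4 and 18.6 CPM in deficient buds (-0.07, SE 0.103). Each of the 3 SOXF genes lay higher in Hand2_del without overlap, as did 18.7% of all genes. The differences between both effects were not called among any of the members (0 of 33 in edgeR, with 6 at an unadjusted p under 0.05 and 1, Cldn5, called by DESeq2, where edgeR called 1.68% of all genes, 0.789% higher and 0.893% lower).

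Around these members, edgeR called 0 of 20 listed NOTCH pathway and arterial or venous genes in the Tbx3 comparison. Of these, 7 had an unadjusted p under 0.05. Among the genes of this list that are named here, DESeq2 called Jag1, Gja4 and Gja5. Its calls for the rest of the list are not given. In the Hand2 comparison edgeR called 1 gene of the list higher and 2 lower. The medians were 0.02 and 0.04. The share of all genes called in the Hand2 comparison was 4.68% higher and 5.82% lower. Gja4, which encodes the arterial gap junction protein connexin 37, was at 9.36, 8.996 and 9.48 CPM in Hand2_WT and rose to 12.2, 13.0 and 12.4 CPM in Hand2_del (0.43, SE 0.0699, edgeR adjusted p = 0.0192). The call ended without Hand2_WT replicate 1 or 3 or Hand2_del replicate 1 or 3 (0.0541 to 0.0769). In Tbx3_WT it was at 12.3, 9.53 and 9.87 CPM and in Tbx3_del at 7.53, 6.72 and 7.63 CPM, below all wild types (-0.54, SE 0.137, edgeR adjusted p = 0.134, DESeq2 adjusted p = 0.0489). The difference between both effects was called (0.97, SE 0.146, edgeR adjusted p = 0.00994), also without any single library.

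Gja5, the gene of connexin 40, separated in the same directions. It was at 9.48, 10.3 and 10.9 CPM in Tbx3_WT and 7.29, 4.26 and 5.56 CPM in Tbx3_del (-0.85, SE 0.194, edgeR adjusted p = 0.105). Hand2_WT had 8.92, 10.99 and 10.4 CPM and Hand2_del 12.4, 13.9 and 13.4 CPM (0.39, SE 0.0993, adjusted p = 0.0514). Neither effect passed in edgeR, though the first was called without the low-count filter (adjusted p = 0.0216), by DESeq2 (0.00317) and without Tbx3_del replicate 1 (-1.06, edgeR adjusted p = 0.0375). The Hand2 effect was called by DESeq2 (0.00707) and by limma-voom (0.0451). The difference between effects was called at 1.24 (SE 0.223, edgeR adjusted p = 0.0216), and ended without Tbx3_WT replicate 3, Tbx3_del replicate 3 or Hand2_WT replicate 1 (0.0578 to 0.0618).

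Jag1, a NOTCH ligand gene expressed in arteries and in limb mesenchyme, went the other way. It was at 15.7, 13.8 and 15.9 CPM in Tbx3_WT and 20.5, 25.2 and 20.2 CPM in Tbx3_del (0.54, SE 0.11, edgeR adjusted p = 0.0787), called with no low-count filter (0.0154) and by DESeq2 (0.00429). It fell from 20.9, 22.8 and 22.9 CPM in Hand2_WT to 17.3, 16.1 and 15.8 CPM in Hand2_del (-0.43, SE 0.0692, adjusted p = 0.0186), a call that ended without Hand2_WT replicate 3 or Hand2_del replicate 3 (0.0617 to 0.0788). The difference between effects was -0.97 (SE 0.133, edgeR adjusted p = 0.00688), called without any single library. Hey1, a NOTCH target gene, fell in Hand2_del from 27.7, 34.9 and 34.0 to 24.0, 25.0 and 24.9 CPM (-0.39, SE 0.0909, edgeR adjusted p = 0.0438). Its call ended without any of 5 of the 6 libraries (0.0736 to 0.143), all but Hand2_WT replicate 1, and with the sex covariate (0.0798), and its Tbx3 fold change was 0.03 (adjusted p = 0.902). Stage, colony, targeted gene and kind of loss differ together between the series, so what a difference of effects belongs to cannot be told apart.

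**Figure D3:**
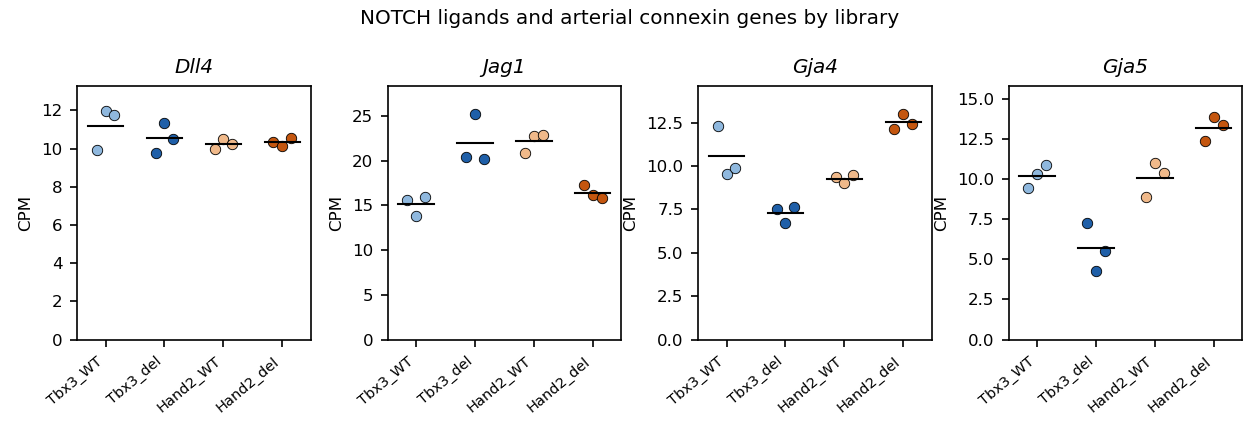
CPM in each library (points) and group means (lines) for the NOTCH ligand genes Dll4 and Jag1 and the arterial connexin genes Gja4 and Gja5. Gja4 and Gja5 lie below their wild types in Tbx3_del and above them in Hand2_del, Jag1 does the reverse, and Dll4 overlaps in both series.

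To set the VEGF and NOTCH linked members against the amount of vessel RNA, the mean log2 CPM of 10 pan-endothelial members (Pecam1, Cdh5, Cldn5, Esam, Icam2, Tie1, Tek, Emcn, Erg and Myct1) was taken as the vessel share. It was 4.42, 4.11 and 4.32 in Tbx3_WT and 4.21, 4.30 and 4.23 in Tbx3_del, a difference of -0.03 with a pooled SD of 0.12. In Hand2_WT it was 4.20, 4.26 and 4.18 and in Hand2_del 4.19, 4.34 and 4.35, a difference of 0.08 with a pooled SD of 0.07. On this mean log2 scale the groups overlapped in both series. Summed in CPM, the same 10 genes lay at 250 to 260 CPM in Hand2_WT and 262 to 288 CPM in Hand2_del, without overlap. The Tbx3 sums were 235 to 283 CPM in wild types and 246 to 269 CPM in deficient buds, with overlap. With all members outside the VEGF receptors and the Dll4 and SOXF group as the share, the Hand2 difference was 0.105. It was 0.013 with the median over the 10 genes. With the median over the 10 genes in place of their mean, the Tbx3 difference was -0.20, and leaving out single libraries gave -0.12 to 0.04, so it has no stable direction. These scores are given without a test, since the members were picked with results known.

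The mean log2 CPM of Kdr, Flt1 and Flt4 minus the vessel share was 0.88, 1.17 and 0.94 in Tbx3_WT and 1.048, 1.38 and 1.32 in Tbx3_del, a difference of 0.25 (pooled SD 0.16) with overlap, or 0.42 with medians over genes. Of these 3 genes Flt1 alone separated the groups: its value against the vessel share was 0.31, 0.81 and 0.54 in Tbx3_WT and 0.89, 1.28 and 1.36 in Tbx3_del, without overlap, while Kdr (difference 0.09) and Flt4 (0.05) overlapped. In the Hand2 series the receptor mean differed by 0.03 (pooled SD 0.06), and Flt1 by 0.10, with all deficient libraries higher. With all members outside the VEGF receptors and the Dll4 and SOXF group as the share, the receptor mean differed by 0.0016. Dll4, Sox7, Sox17 and Sox18 against the vessel share differed by -0.01 (pooled SD 0.11, and 0.15 with medians over genes) in the Tbx3 series and 0.08 (pooled SD 0.08) in the Hand2 series, both with overlap. The Hand2 value was 0.15 with medians over genes, 0.03 without Hand2_del replicate 1 and 0.13 without Hand2_del replicate 3. It was 0.059 with all members outside the VEGF receptors and the Dll4 and SOXF group as the share. Of these 4 genes, Sox7 minus the vessel share was -0.56, -0.66 and -0.78 in Hand2_del and -0.85, -0.90 and -0.93 in Hand2_WT, without overlap. Dll4 was at -0.05 and -0.06 in the 2 comparisons.

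**Figure D4:**
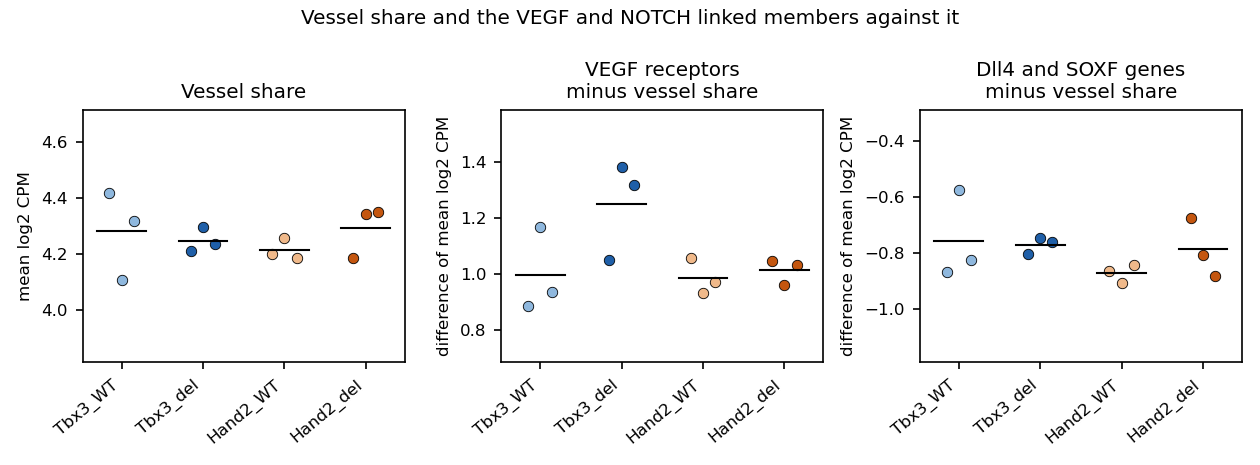
Vessel share (mean log2 CPM of 10 pan-endothelial members) and, relative to it, the mean log2 CPM of the VEGF receptor genes and of Dll4 with the SOXF genes, in each library (points) with group means (lines). All panels have the same span in log2 units, no axis starts at 0, and the groups overlap in every panel.

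Among the junction and adhesion genes, Cdh5, which encodes VE-cadherin of endothelial junctions, rose in Hand2_del. It was at 75.4, 76.5 and 79.4 CPM in Hand2_WT and 82.7, 89.1 and 87.3 CPM in Hand2_del, without overlap (0.16, SE 0.0384, edgeR adjusted p = 0.0439). Leaving out any of the 6 libraries ended the call (0.0547 to 0.152), as did no low-count filter (0.0694), limma-voom (0.0558) and sex as a covariate (0.0943). Cdh5 was at 76.9, 66.2 and 78.2 CPM in Tbx3_WT and 68.7, 73.2 and 70.3 CPM in Tbx3_del, with overlap (-0.06, SE 0.0708). Pecam1, the adhesion molecule CD31, was at 39.0, 33.6 and 42.0 CPM in Tbx3_WT and 41.8, 46.1 and 47.4 CPM in Tbx3_del. Its level was 35.2, 39.8 and 41.1 CPM in Hand2_WT and 44.4, 43.8 and 49.3 CPM in Hand2_del, which did not overlap. Its fold change was 0.24 in both comparisons (SE 0.0888 and 0.0736, edgeR adjusted p = 0.276 and 0.0751), and the second was called by DESeq2 (0.0292).

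Cldn5, the tight junction claudin of endothelium, had the lowest fold change of the members in the Tbx3 comparison. It was at 30.6, 22.6 and 23.3 CPM in Tbx3_WT and 18.4, 19.8 and 17.1 CPM in Tbx3_del, without overlap, wild-type replicate 1 being the highest (-0.46, SE 0.124, edgeR adjusted p = 0.151, DESeq2 adjusted p = 0.0328). Without that library the fold change was -0.31 (edgeR adjusted p = 0.228). Its Hand2 levels were 21.6, 23.9 and 19.4 CPM in wild types and 22.5, 22.8 and 22.4 CPM in deficient buds (0.06, edgeR adjusted p = 0.651). The difference between effects was 0.53 (SE 0.161, edgeR adjusted p = 0.135). Esam and Rasip1, of junctions and vessel lumens, stayed within 13.9 to 17.4 CPM and 27.1 to 37.3 CPM over all 12 libraries. Icam2 was at 12.3, 6.28 and 12.2 CPM in Tbx3_WT and 7.77, 9.12 and 11.9 CPM in Tbx3_del, with the widest spread of any member in Tbx3_WT (coefficient of variation 33.7%). Its Hand2 levels lay between 6.26 and 7.11 CPM.

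Of the angiopoietin receptor genes, Tie1 was at 31.2, 35.2 and 30.6 CPM in Hand2_WT and 37.2, 38.6 and 42.3 CPM in Hand2_del, without overlap (0.28, SE 0.0734, edgeR adjusted p = 0.0527). It was called there without the low-count filter (adjusted p = 0.0426), by DESeq2 (0.0084) and without Hand2_WT replicate 2 (0.0322). In Tbx3_WT it was at 38.7, 26.4 and 35.0 CPM and in Tbx3_del at 30.8, 31.4 and 29.0 CPM (-0.13, SE 0.127). Tek, the receptor that binds the angiopoietins, overlapped in both series, at 14.5 to 20.1 CPM in Tbx3_WT, 15.8 to 19.4 CPM in Tbx3_del, 17.3 to 17.9 CPM in Hand2_WT and 15.1 to 18.4 CPM in Hand2_del (0.07 and -0.05, adjusted p = 0.872 and 0.728).

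Among other surface, secreted and adaptor proteins, Mmrn2 had the largest rise of the called members. Mmrn2 encodes multimerin 2, an extracellular matrix protein of vessels that binds the endothelial receptors CD93 and CLEC14A. It was at 14.5, 12.8 and 13.2 CPM in Hand2_WT and 18.4, 19.4 and 16.9 CPM in Hand2_del, without overlap (0.43, SE 0.082, edgeR adjusted p = 0.0285). The call ended without any of 5 of the 6 libraries (0.0535 to 0.107), all but Hand2_WT replicate 2. In the Tbx3 series it was at 11.3, 14.04 and 11.5 CPM in wild types and 14.8, 14.2 and 8.70 CPM in deficient buds, replicate 3 being the lowest of 6 (0.04, SE 0.203). Cd93, from a list of 35 further endothelial genes, also rose in Hand2_del, from 27.8, 28.6 and 31.2 to 34.0, 34.5 and 36.8 CPM (0.27, SE 0.0614, edgeR adjusted p = 0.0427), and leaving out any of the 6 libraries ended that call (0.0722 to 0.131), as did the sex covariate (0.08). Clec14a was not called (0.24, adjusted p = 0.204). Over that list 0 of 33 genes tested were called in the Tbx3 comparison, and 2 rose and 1 fell of 35 in the Hand2 comparison. The medians there were -0.02 and 0.03. Beside these counts, 1.01% of all genes were called in the Tbx3 comparison, and 4.68% higher and 5.82% lower in the Hand2 comparison.

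Plvap, the diaphragm protein of endothelial fenestrae and caveolae, separated in both series. It was at 55.7, 53.4 and 57.3 CPM in Tbx3_WT and 60.6, 64.5 and 59.2 CPM in Tbx3_del (0.15, SE 0.053, edgeR adjusted p = 0.264). Hand2_WT had 47.7, 47.2 and 46.4 CPM and Hand2_del 53.1, 62.1 and 53.1 CPM, replicate 2 being the highest (0.25, SE 0.065, adjusted p = 0.0522). This was called with no low-count filter (0.0419), by DESeq2 (0.0155) and with the sex covariate (0.0479). Eng, which encodes the TGF-beta co-receptor endoglin, was at 28.8, 28.7 and 28.8 CPM in Tbx3_WT and 31.8, 35.6 and 33.6 CPM in Tbx3_del (0.23, SE 0.058, edgeR adjusted p = 0.137). It overlapped in the Hand2 series, at 27.8, 28.0 and 28.3 CPM in wild types and 26.2, 29.7 and 27.0 CPM in deficient buds (-0.02, adjusted p = 0.85). Cd34, a sialomucin of endothelium and blood progenitors, was at 54.2, 54.5 and 58.9 CPM in Tbx3_WT and 51.4, 51.0 and 49.1 CPM in Tbx3_del, lower without overlap (-0.15, SE 0.052, adjusted p = 0.254). Its Hand2 levels lay between 45.7 and 55.3 CPM with overlap.

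Ecscr, a regulator of endothelial migration, was lower in Tbx3_del and not in Hand2_del. It was at 5.89, 5.42 and 5.99 CPM in Tbx3_WT and 5.09, 4.64 and 4.04 CPM in Tbx3_del (-0.33, SE 0.143, edgeR adjusted p = 0.35). Hand2_WT had 4.79, 5.84 and 5.02 CPM and Hand2_del 5.69, 6.15 and 6.51 CPM (0.23, adjusted p = 0.197). The difference of 0.56 was not called (adjusted p = 0.126), which was the lowest adjusted p for a difference among the members. Egfl7, a secreted vessel protein, was at 24.4, 24.5 and 24.6 CPM in Hand2_WT and 26.8, 27.6 and 26.6 CPM in Hand2_del (0.14, SE 0.048, edgeR adjusted p = 0.0966). S1pr1, a receptor of sphingosine 1-phosphate, was at 10.8, 10.5 and 10.2 CPM in Hand2_WT and 11.8 to 12.4 CPM in Hand2_del (0.20, adjusted p = 0.0929). Ushbp1 was at 3.43, 3.62 and 3.34 CPM in Hand2_WT and 4.31, 3.78 and 3.90 CPM in Hand2_del. These 3 genes did not overlap in the Hand2 series and overlapped in the Tbx3 series. Emcn, Robo4 and Myct1 overlapped in both series, Emcn at 16.1 to 20.4 CPM, Robo4 at 8.19 to 11.7 CPM and Myct1 at 2.15 to 3.44 CPM over all 12 libraries. Gpihbp1 had a fold change of 0.48 in the Hand2 comparison (SE 0.353, adjusted p = 0.384), at 0.40 CPM or less in every library.

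Of the transcription factor genes, Lmo2 was lower in both series. It was the one member that edgeR called lower, in the Hand2 comparison. LMO2 is a bridging protein of the TAL1 complex in blood and endothelium. Lmo2 was at 26.3, 26.3 and 28.0 CPM in Tbx3_WT and 24.0, 21.8 and 22.4 CPM in Tbx3_del (-0.24, SE 0.065, edgeR adjusted p = 0.152). It fell from 24.2, 26.8 and 27.1 CPM in Hand2_WT to 20.9, 19.9 and 20.2 CPM in Hand2_del (-0.36, SE 0.064, adjusted p = 0.0247), a call that ended without Hand2_WT replicate 3 or any of the 3 Hand2_del libraries (0.0546 to 0.0942). The groups did not overlap in either series, and the effects differed by -0.11 (adjusted p = 0.514). Lmo2 is also expressed in limb bud mesenchyme, so its whole-bud level is not that of endothelium alone. Erg, Fli1 and the list's Ets1 are ETS factor genes. Erg overlapped in both series (18.6 to 33.1 CPM over all 12 libraries), and so did Fli1, at 37.1 to 47.0 CPM in Tbx3_WT and 32.9 to 38.1 CPM in Tbx3_del (-0.30, SE 0.0983, edgeR adjusted p = 0.226). Ets1 fell in Hand2_del from 101, 117 and 106 to 88.0, 94.6 and 92.4 CPM (-0.24, SE 0.0592, edgeR adjusted p = 0.048), and leaving out any of the 6 libraries ended the call (0.0556 to 0.135), as did limma-voom (0.052) and the sex covariate (0.0995).

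Tal1 and Lyl1 are bHLH factor genes shared by endothelium and blood, and Tal1 was highest in libraries with much red cell RNA. Tal1 was at 20.2, 11.96 and 13.5 CPM in Tbx3_WT, 10.95, 13.7 and 18.2 CPM in Tbx3_del, 18.8, 12.6 and 11.7 CPM in Hand2_WT and 15.2, 15.4 and 16.2 CPM in Hand2_del. The summed level of 12 red cell genes was 4613, 2854 and 2813 CPM, 2022, 2122 and 4007 CPM, 4140, 2724 and 2490 CPM, and 3277, 3454 and 3893 CPM in the same order. The library with the most red cell RNA had the most Tal1 in 4 of 4 groups. This held for Lyl1, Icam2 and Flt1 in 3 of 4 groups, and for no group in 7 members, Cdh5 and Lmo2 among them. Another 15 members matched in 1 group and 7 in 2 groups. With 3 libraries per group such matches are frequent without any link. The match of Tal1, the highest of 33 members, is therefore a description. Tal1 and Lyl1 were not called (-0.09 and 0.12 for Tal1, 0.26 and 0.21 for Lyl1).

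**Figure D5:**
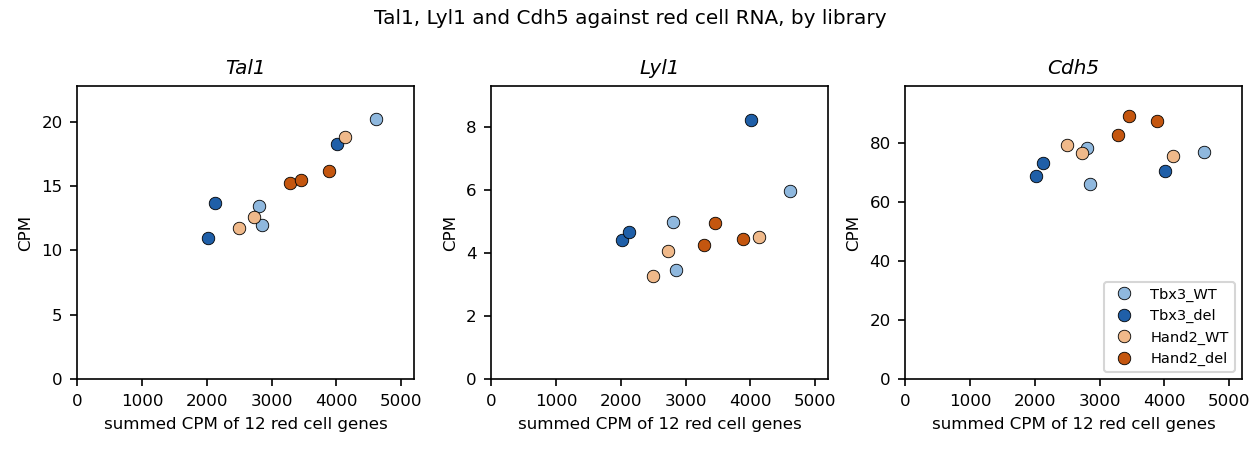
CPM of Tal1, Lyl1 and, for contrast, Cdh5 against the summed CPM of 12 red cell genes, 1 point per library, coloured by group. Tal1 is highest in the library with the most red cell RNA in 4 of 4 groups, Lyl1 in 3 and Cdh5, 1 of 7 such members, in 0.

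RNA of other cells differed between groups beside these members. Platelet genes (7 of 7 tested, 0 called, median 1.69 in the Tbx3 comparison) summed to 6.15 to 12.2 CPM in Tbx3_WT and 16.2 to 40.1 CPM in Tbx3_del. In the Hand2 series they summed to 8.16 to 13.7 and 13.3 to 22.3 CPM, with 0 called. Macrophage genes summed to 2.86 to 6.53 CPM in Tbx3_WT, 9.40 to 11.2 CPM in Tbx3_del, 5.90 to 9.53 CPM in Hand2_WT and 11.4 to 22.0 CPM in Hand2_del, with 0 of 5 tested called in the Tbx3 comparison and 3 of 11 in the Hand2 comparison. Of 12 macrophage genes, 5 passed the low-count filter in the Tbx3 comparison. All 5 had positive fold changes there (median 1.52), 4 of them without overlap. Genes this low can pass the filter through the group where they are high. Their direction and separation are therefore not set against the share of all genes. Mrc1 was called in the Tbx3 comparison with no low-count filter (1.62, adjusted p = 0.0235) and by DESeq2 (1.63, adjusted p = 0.0228). Pecam1, Fli1, Flt1 and Eng are also expressed in platelet or macrophage lineages, and the part of these cells in the values above was not tested. Pericyte and mural genes, 0 of 8 called in the Tbx3 comparison and 3 of 8 higher in the Hand2 comparison, summed to 325 to 368 CPM in Hand2_WT and 385 to 458 CPM in Hand2_del. Higd1b, 1 of these genes, was at 0 in Tbx3_WT, Tbx3_del and Hand2_WT. Limb mesenchyme genes were all detected and summed to 1664 to 1696 CPM in Tbx3_WT, 1447 to 1618 CPM in Tbx3_del, 1606 to 1755 CPM in Hand2_WT and 1753 to 2142 CPM in Hand2_del. Of these 8 genes 0 were called higher and 1 lower in the Tbx3 comparison, and 3 higher and 1 lower in the Hand2 comparison. Ectoderm genes summed to 236 to 264, 243 to 262, 238 to 285 and 210 to 238 CPM in the same order, with 0 of 8 called in the Tbx3 comparison and 1, lower, in the Hand2 comparison. The part of these cells in the members' values was not tested. Beside all these list counts, 0.727% of all genes were called higher and 0.284% lower in the Tbx3 comparison, and 4.68% and 5.82% in the Hand2 comparison. Exons of 9 members overlap those of another gene, and the strand of the libraries is not given in the sources used here, so counts of Cd34, Sox17, Ramp2, Ecscr, Dll4, Egfl7, Eng, Rasip1 and Lyl1 may include reads of neighbours.

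Between the wild types of both stages, levels can be set side by side only with stage, colony and depth differing together and each series scaled on its own. Plvap was at 53.4 to 57.3 CPM in Tbx3_WT and 46.4 to 47.7 CPM in Hand2_WT, and Icam2 at 6.28 to 12.3 and 6.43 to 7.06 CPM. Flt1, Flt4, Dll4 and Cdh5 overlapped between the wild-type groups. Replicates of a member varied with a median coefficient of variation of 10.1% in Tbx3_WT and 4.48% in Hand2_WT, and of 9.55% and 6.65% in the deficient groups.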

How the data were processed

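Messenger RNA was measured by RNA sequencing in 12 forelimb bud libraries, 3 per group, grouped by the genotype in the labels. Per the labels' protocols, RNA was extracted with an RNeasy kit from frozen buds, samples had an RNA integrity number of at least 8.0, and SMARTer libraries were read as single ends of 85 bp. Tools named in the submitters' processing notes are RSEM 1.3.0, STAR 2.5.2 and FastQC 0.11.4, with the genome build mm10. The authors deposited expected counts from RSEM, not normalised, 1 value per Ensembl gene and library. An expected count shares ambiguous reads between genes and sums all isoforms.

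Counts were rounded and matched by identifier to symbols of GENCODE M21. edgeR 4.0.16 in R 4.3.3 was run with its quasi-likelihood test after filterByExpr (count at least 10, total at least 15) and TMM scaling, with p-values adjusted by Benjamini and Hochberg's method across the genes tested, first on 6 libraries per comparison and then on all 12 for the difference of effects. The test was tried first on simulated counts. The SE was derived from the log2 fold change and the F statistic. CPM use the TMM factors of each series, and the scores use log2 CPM with a prior count of 2. Exon lengths are the union of annotated exons. Alternatives were RLE scaling, no low-count filter, DESeq2 1.42.0, limma-voom (limma 3.58.1), the replicate number as a block, embryo sex as a covariate and leaving out each library. For the scores they were RLE scaling, a prior count of 0.5, the median over genes and, as the share, all 26 members outside the VEGF receptors and the Dll4 and SOXF group.

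Members, lists and tests were chosen with earlier results of these data known. Given library by library are the VEGF receptors, Dll4, the SOXF genes, members called or not overlapping in a comparison, members at the extremes of level, 11 fixed genes of the VEGF and NOTCH lists and up to 4 called genes of each other list. Ets1 and Cd93 came in by that last rule, while Calcrl, Clec14a, Higd1b, Pf4, Ppbp, Acta2, Rgs5 and the values by library of Icam2 and Tal1 were added after their values were seen. Labels do not say whether embryos shared litters, so p-values measure the spread between these embryos. Replicates differed well beyond counting error (chi-square per gene 14.0 to 29.6 between replicates, and 209 and 223 for the pairs with Hand2_del replicate 1). The last 2 values include the 1 gene that held 5.37% of the counts of that library. The part of this gene in them was not tested. Same-numbered libraries did not deviate together (correlations of deviations -0.13 to 0.07), so numbers were not taken as pairs.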

Additional observations from a re-analysis of the deposited data

Results flagged for a closer look

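These genes had effects that differed between both comparisons in edgeR's test of the difference (Hand2 effect minus Tbx3 effect, log2). None is a member. Of the arterial and NOTCH genes, Jag1 had a difference of -0.97, Gja4 of 0.97 and Gja5 of 1.24, with values by library given above.

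Of mural cell genes, Pdgfrb, the receptor of platelet-derived growth factor on pericytes and on limb mesenchyme, had a difference of 0.46 (SE 0.0871, edgeR adjusted p = 0.0261), called in the fit of all 12 libraries and not without any of 8 of them (0.0528 to 0.0743), with means of 110 and 98.8 CPM in the Tbx3 series and 123 and 152 CPM in the Hand2 series. Abcc9, a potassium channel regulatory subunit of pericytes, had a difference of 5.07 (SE 0.953, edgeR adjusted p = 0.026). Tbx3_WT replicate 3, at 3.42 CPM beside 0.68 and 0.26 CPM in the other wild types, sets much of this value, which was 3.44 without that library (adjusted p = 0.0214). The call ended without any of 6 other libraries (adjusted p from 0.0502 to 0.074), replicates 2 and 3 of Tbx3_del, 1 and 3 of Hand2_WT and 1 and 3 of Hand2_del.

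Of hypoxia and glycolysis genes, Pdk1 had a difference of -1.79, Egln3 of -1.76, Aldoa of -0.95 and Egln1 of -0.67. Each was called higher in Tbx3_del (log2 fold changes 1.52, 1.56, 0.83 and 0.67) and not called in Hand2_del (-0.28, -0.21, -0.12 and 0.00). The 4 Tbx3 calls ended with embryo sex as a covariate (edgeR adjusted p = 0.0577 for the first 3 and 0.0648 for Egln1). They also ended without any of 3, 4, 5 and 5 single libraries, at adjusted p from 0.0531 to 0.0717, 0.0609 to 0.0816, 0.0507 to 0.0955 and 0.0615 to 0.114. Prrx2, a homeobox gene of limb mesenchyme, had a difference of 0.71, rising in Hand2_del from a mean of 140 to 202 CPM beside 152 and 134 CPM in the Tbx3 series.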

How the results depend on the processing

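Genes called in the Tbx3 comparison numbered 153, beside 504 with no low-count filter, 551 by DESeq2, 99 by limma-voom, 22 with embryo sex as a covariate and 23 to 220 with 1 library left out. Members called there numbered 0, beside 1 with no filter (Flt1), 2 by DESeq2 and 0 to 1 with 1 library left out. In the Hand2 comparison 1836 genes were called, beside 3491 by DESeq2, 526 with the sex covariate and 218 (without Hand2_WT replicate 3) to 2223 (without Hand2_WT replicate 2), and 4 members, beside 7 by DESeq2 and 0 to 3 with 1 library left out. The difference of effects had 292 genes, 878 by DESeq2 and 123 to 336 with 1 library left out, and 0 members, 1 by DESeq2 and 0 to 1 with 1 library left out. With medians over genes, the vessel share in the Tbx3 comparison was -0.20, the VEGF receptors against it 0.42, Dll4 with the SOXF genes against it 0.15, and the VEGF receptors in the Hand2 comparison 0.093. Over single libraries left out, the vessel share ran from 0.05 to 0.13 in the Hand2 comparison. The causes of these shifts were not tested. A fit without 1 library has fewer samples to measure the spread. The highest counts with 1 library left out, 220, 2223 and 336 genes, lay above the 153, 1836 and 292 genes of the full fits. No named gene reversed its direction by more than its SE.

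With the replicate number as a block, 87 genes were called in the Tbx3, 161 in the Hand2 and 69 in the difference comparison, with 0 members called in each. The numbers do not pair the libraries, so these counts do not show weaker effects. The Tbx3 series, with at most 31.8 M counts per library, holds too few reads of Gpihbp1 to test it.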

Other observations

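Of the pericyte and mural genes, 3 of 8 tested were called higher in Hand2-deficient buds, beside 4.68% of all genes. Pdgfrb, 1 of these, is also expressed on limb mesenchyme. Limb mesenchyme genes summed to 1606 to 1755 CPM in Hand2_WT and 1753 to 2142 CPM in Hand2_del. The part of mesenchyme in the values below was not tested. Abcc9 went from 0.27, 0.60 and 0.38 CPM in Hand2_WT to 3.65, 3.40 and 4.10 CPM in Hand2_del (log2 fold change 3.15, SE 0.278, edgeR adjusted p = 0.00217), a call kept without any single library. Cspg4, the proteoglycan NG2 of pericytes, rose from a mean of 3.14 to 5.96 CPM (0.92, SE 0.205, adjusted p = 0.0397) and Pdgfrb from 119, 129 and 121 to 162, 143 and 150 CPM (0.30, SE 0.056, adjusted p = 0.0267). Both calls ended without single libraries (adjusted p from 0.0538 to 0.127 for Cspg4, without any but Hand2_WT replicate 2, and from 0.0547 to 0.107 for Pdgfrb, without replicate 1 or 3 of either group) and with embryo sex as a covariate (0.0839 and 0.0664). The smooth muscle gene Acta2 was at 0.24 to 3.19 CPM in Hand2_WT and 2.33 to 3.47 CPM in Hand2_del, and the pericyte gene Rgs5 at 3.97 to 5.11 and 3.55 to 8.15 CPM, without a call.

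Platelet genes had no call in the Tbx3 comparison, and all 7 lay higher in every Tbx3_del library than in any wild type. They are low and share a cell type and the same embryos. Their separation is therefore a description and is not set against the share of all genes. Pf4, platelet factor 4, was at 3.80, 1.13 and 3.84 CPM in Tbx3_WT and 5.17, 12.8 and 11.8 CPM in Tbx3_del (1.76, edgeR adjusted p = 0.154). Ppbp, a platelet chemokine gene, was at 1.79, 0.65 and 1.04 CPM in Tbx3_WT and 2.81, 6.72 and 6.48 CPM in Tbx3_del (2.20, adjusted p = 0.0747).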
